A study of Arabidopsis thaliana with 12 samples.

Results

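Polymerase occupancy over genes was compared between 2 phosphorylated forms of RNA polymerase II in uninduced Arabidopsis thaliana seedlings, in 6 of the 12 libraries of a chromatin immunoprecipitation sequencing (ChIP-seq) series. The members were chosen by label: 3 mock libraries made with an antibody against polymerase phosphorylated on serine 5 (S5P mock) and 3 mock libraries made with an antibody against polymerase phosphorylated on serine 2 (S2P mock). All plants were of ecotype Columbia, 10 days old, in the tfIIs-1 background, an insertion allele of the elongation factor gene TFIIS, grown at 22 °C under days of 16 h of light. Mock plants were exposed to ethanol for 24 h. The other 6 libraries, 3 with each antibody, came from plants exposed to 2 mM β-estradiol for 24 h. The labels name GFP-TFIISmut as the induced protein in the S5P libraries and GFP-TFIIS in the S2P libraries. The mock labels name no transgenic line, so in mock plants the antibody cannot be told apart from a possible difference in line. Neither wild-type plants nor input DNA nor total polymerase II libraries were used here. Nothing says that same-numbered libraries came from the same chromatin or that replicates were separate cultures, so the spread between them may be technical.

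The largest subunit of RNA polymerase II ends in a tail of heptapeptide repeats, the carboxy-terminal domain (CTD). Serine 5 of the repeat is phosphorylated by the kinase module of the initiation factor TFIIH, and this form is typically richest near the start of genes. Serine 2 is phosphorylated later, largely by kinases of the P-TEFb type, and that form is typically richest in the body of genes and towards their ends, with TFIIS travelling with the elongating enzyme. A precipitated read shows where the form was, not how many transcripts were made.

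The S5P mock libraries held 628487, 362807 and 1277600 reads over nuclear genes, against 159951, 192044 and 2537034 reads in the S2P mock libraries. S2P replicates 1 and 2 were thus the shallowest, and 3 reads there correspond to 18.8 and 15.6 CPM (counts scaled to a total of 1e6 nuclear gene reads, with no further scaling), against 1.18 CPM in S2P replicate 3. Reads outside genes made up 23.8%, 28.7% and 22.3% of the counted reads in S5P mock and 25.5%, 29.4% and 24.5% in S2P mock, so that the share was lower with S5P in each pair. Same-numbered libraries deviated together from their group means, with correlations across 16388 genes of 0.197, 0.301 and 0.469. All 6 correlations between different numbers were negative. Deviations cancel within a group, so positive same-number values largely force these negative ones, which are no added evidence of pairing. Same replicate numbers were taken as pairs in the fit, as laid down for this comparison. The chi-square per degree of freedom between the antibodies over genes was 1.402, 1.07 and 2.86 in pairs 1, 2 and 3, against 1.61 to 3.97 between replicates of 1 antibody. Pair 2 was thus close to counting noise at its depth. This value rises with depth for a given difference, so it does not rank pairs or replicates of unequal depth. The labelled tissue was checked on markers. The 54 genes of a photosynthesis list summed to 5695, 1974 and 2639 CPM in S5P mock and 5439, 1802 and 2476 CPM in S2P mock. The 24 genes expected to be silent outside flowers and seeds summed to 361 to 488 CPM in S5P mock and 319 to 557 CPM in S2P mock. Of these 24, 8 had enough reads to be tested. AP1 averaged 34.9 and 37.4 CPM in S5P and S2P mock, and SEP2 19.1 and 23.5 CPM. The medians over all tested genes were 37.5 and 37.6 CPM, so the silent list was not free of reads. TFIIS itself (AT2G38560) had 58.9, 46.9 and 47.7 CPM in S5P mock, against 18.8, 67.7 and 57.9 CPM in S2P mock (log2 difference -0.09, SE 0.23, adjusted p = 0.969, edgeR). These reads lie on the locus as DNA, so they do not check the insertion allele.

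Of 16388 nuclear genes with enough reads, 230 (1.4%) differed between the antibodies at an adjusted p under 0.05 in edgeR's quasi-likelihood test with the replicate number as a block. S5P was higher at 98 of them (0.598% of the genes tested) and S2P at 132 (0.805%). Most differences were close to 2-fold: the median absolute log2 difference was 0.86 for the genes with more S5P and 0.85 for those with more S2P, against 0.20 over all genes tested. By p, the genes with more S5P were led by a pair of neighbouring pseudogenes, the carrier gene DIC2 and the cell-surface protein gene AGP16, and those with more S2P by AT5G33330, AT3G50682 and the pollen wall gene LAP3. On CPM scaled by edgeR's TMM factors, the sign was the same in all 3 pairs at 80 of the 98 genes and 107 of the 132, against 28.9% of all genes tested. The 3 S5P values lay apart from the 3 S2P values at 9 of the 98 genes and at 69 of the 132, against 8.07% of all genes tested. Since the genes were called on these same 3 pairs, larger differences, shared signs and separate values are partly built into the choice. The count rested on the pairing and on the deepest pair. Without the block no gene passed (372 had an unadjusted p under 0.05), DESeq2 with the block called 0 (260), and without pair 3 edgeR called 0 of 10125 (630), while limma-voom with the block called 301 (1.84%). The paired fit left 2 residual degrees of freedom, and its prior degrees of freedom were estimated as infinite. Its spread thus came wholly from the trend over all genes, and a gene's own spread did not enter its p.

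**Figure D1:**
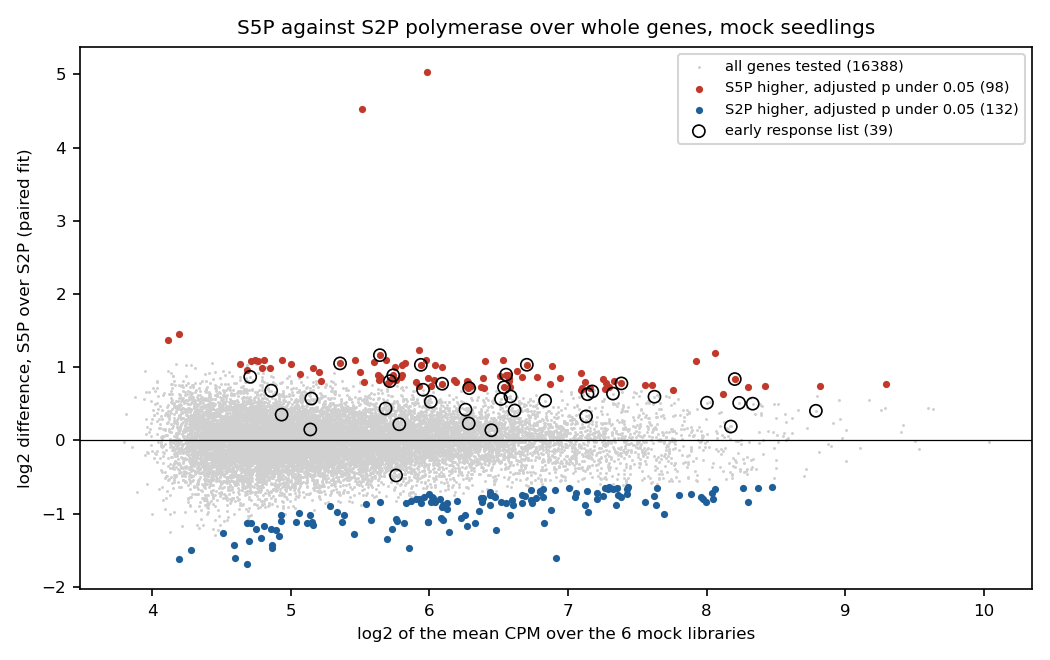
Log2 difference of S5P over S2P from the paired fit (vertical axis) against the log2 of the mean CPM over the 6 mock libraries (horizontal axis), 1 point per gene tested. Red points are the 98 genes with more S5P, blue points the 132 with more S2P, and open circles the 39 tested genes of an early response list, of which 38 lie above 0.

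The neighbouring pseudogenes AT3G60930 and AT3G60935 on chromosome 3 had by far the largest differences. AT3G60930 had 19.1, 22.1 and 299 CPM in S5P mock, against 12.5, 20.8 and 5.91 CPM in S2P mock, a log2 difference of 5.04 (SE 0.31, adjusted p = 2.81e-56, edgeR). AT3G60935 had 28.6, 41.3 and 177 CPM in S5P mock, against 0, 20.8 and 5.91 CPM in S2P mock (log2 difference 4.52, SE 0.31, adjusted p = 3.39e-45, edgeR). S5P replicate 3 alone supplied most of both differences: it held 382 and 226 reads, while in pairs 1 and 2 the S5P values were above their S2P partners by far less. In the induced libraries AT3G60930 had 16.4, 69.0 and 375 CPM with S5P and 3.03, 8.65 and 0 CPM with S2P, and again replicate 3 of S5P was highest. At AT3G60935 the induced values were 20.01, 94.9 and 266 CPM with S5P and 3.63, 6.05 and 0 CPM with S2P. Reads over pseudogenes can be shared with similar copies elsewhere. In the deposited counts the line for alignments that were not unique stood at 0 in each mock library. The line for alignments of too low quality held 135836 to 793159 reads there. Whether shared reads were among these is not given in the sources used here.

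Among called protein-coding genes with more S5P and the same sign in all 3 pairs, those with the smallest p were DIC2, AGP16, SAG21, CAF1b, EARLI1, AT4G27280, H1.1, AGP1, PUB23 and BBX15, with log2 differences between 1.03 and 1.24. Their shared sign over the pairs was a condition of the choice. AT4G27652 and ERF105 had smaller p than BBX15 (log2 differences 1.07 and 1.03) but not the same sign in all 3 pairs after scaling. DIC2, a mitochondrial dicarboxylate carrier, had 129, 143 and 827 CPM in S5P mock, against 12.5, 78.1 and 408 CPM in S2P mock (2.28-fold, log2 difference 1.19, SE 0.21, adjusted p = 3.27e-05, edgeR). AGP16, an arabinogalactan protein of the cell surface, had 81.1, 33.1 and 134 CPM in S5P mock and 50.02, 10.4 and 55.2 CPM in S2P mock (log2 difference 1.24, SE 0.22, adjusted p = 4.23e-05, edgeR). At both genes the antibodies overlapped once the pairs were ignored, since the replicates of 1 antibody differed several-fold. SAG21, a late embryogenesis abundant protein linked to senescence and oxidative stress, had 296, 154 and 539 CPM in S5P mock and 81.3, 125 and 258 CPM in S2P mock (log2 difference 1.08, SE 0.19, adjusted p = 5.14e-05, edgeR). EARLI1, a proline-rich protein of the lipid transfer type induced by cold, had 105, 77.2 and 150 CPM in S5P mock and 75.02, 31.2 and 67.4 CPM in S2P mock. At SAG21 the S5P value of pair 2 was below the S2P value of pair 3, and at EARLI1 the lowest S5P and highest S2P values nearly met. H1.1, a linker histone, had 82.7, 52.4 and 117 CPM in S5P mock, against 43.8, 26.04 and 54.4 CPM in S2P mock (log2 difference 1.099, SE 0.22, adjusted p = 0.000426, edgeR). BBX15, a B-box zinc finger protein, had 119, 52.4 and 95.5 CPM in S5P mock, against 62.5, 15.6 and 48.9 CPM in S2P mock. For H1.1 and BBX15 the lowest S5P value fell below the highest S2P value, which came from another pair.

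**Figure D2:**
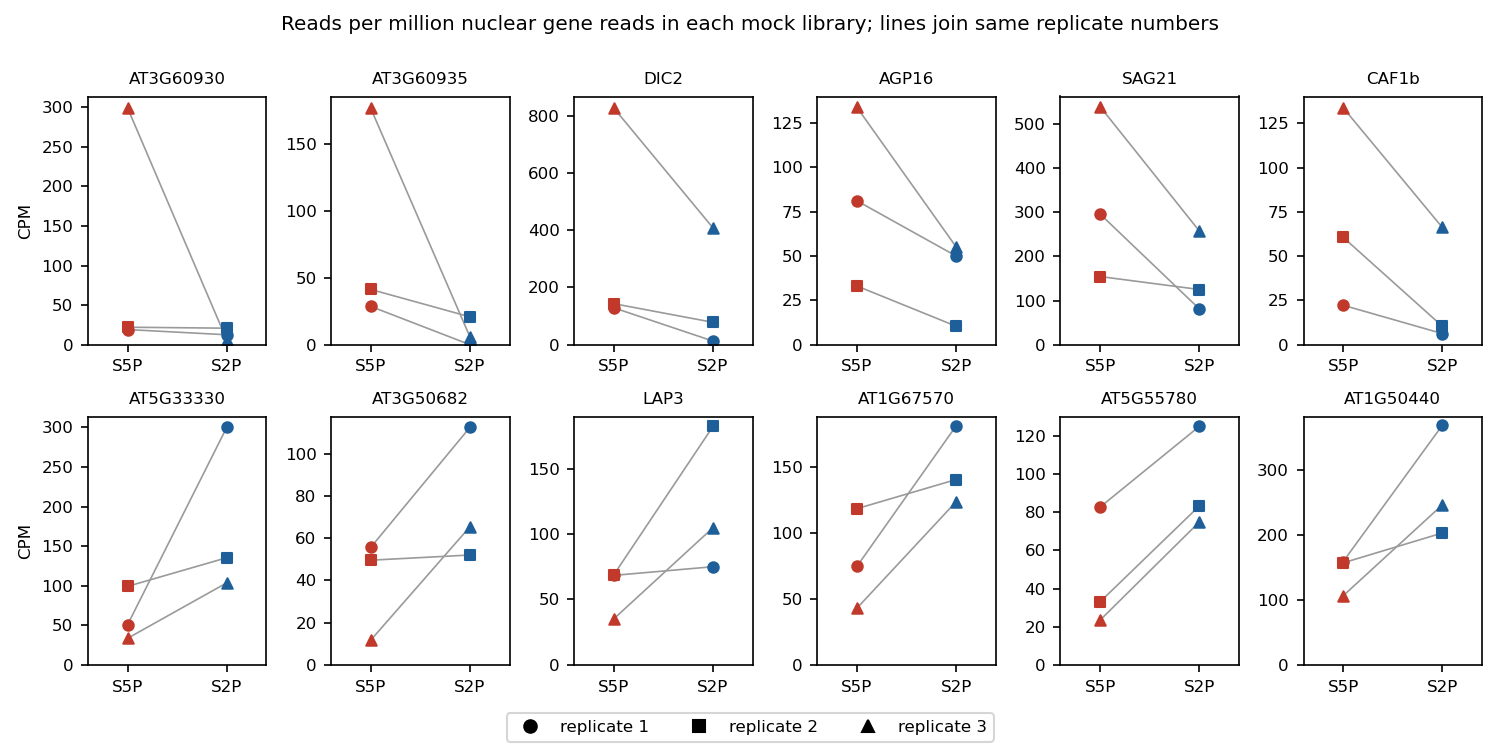
CPM (vertical axis, from 0) in each mock library, with S5P in red on the left and S2P in blue on the right of each panel, and lines joining same replicate numbers. Rows show the 6 genes with the smallest p among those with more S5P (top) and more S2P (bottom) in all 3 pairs after scaling, so the direction of the lines was fixed by the choice. The replicates of 1 antibody differ several-fold at genes such as DIC2.

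In the paired fit, most genes of a list of early responders to touch, cold or microbial elicitors had more S5P. The list was chosen with earlier results of these data known, so it is no independent evidence of its direction, which other fits given below turned. Of its 47 genes, 39 were tested and 11 had more S5P by the test (28.2%, against 0.598% of all genes tested), none had more S2P, and 38 of 39 had a positive log2 difference, against 8250 of 16388 genes. The median log2 difference over the list was 0.60, against 0.0027 over all genes. The 11 were CAF1b, PUB23, ERF105, ERF5, ERF1A, WRKY33, ZAT12, ERF6, ZAT10, TCH2 and WRKY22. The CPM of the list's 47 genes summed to 3087, 2800 and 10846 in S5P mock, against 2576, 1953 and 7095 in S2P mock. Replicate 3 was thus highest with both antibodies, and S5P was higher within each pair.

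The regulators of this group differed by similar amounts. CAF1b, a deadenylase that shortens the poly(A) tails of mRNAs, had 22.3, 60.6 and 134 CPM in S5P mock, against 6.25, 10.4 and 66.2 CPM in S2P mock, where the first 2 values are 1 and 2 reads (log2 difference 1.16, SE 0.22, adjusted p = 0.000205, edgeR). PUB23, a ubiquitin ligase that dampens immune signalling, had 46.1, 79.9 and 294 CPM in S5P mock, against 18.8, 36.4 and 150 CPM in S2P mock. The transcription factors of the ethylene response factor family on the list that passed, ERF105, ERF5, ERF1A and ERF6, had log2 differences of 1.03, 1.05, 0.90 and 0.81. WRKY33, a transcription factor of defence against fungi, had 189, 185 and 755 CPM in S5P mock, against 106, 98.9 and 435 CPM in S2P mock (log2 difference 0.84, SE 0.20, adjusted p = 0.00489, edgeR). TCH2, a calmodulin-like protein induced by touch, had 47.7, 49.6 and 159 CPM in S5P mock, against 37.5, 20.8 and 94.6 CPM in S2P mock. FRK1, a receptor-like kinase gene used as an immune marker, was the 1 tested member with a negative value (log2 difference -0.48, SE 0.24, adjusted p = 0.492, edgeR). Members just outside the threshold were PUB22 (log2 difference 0.71, adjusted p = 0.0549, edgeR) and ERF104 (0.67, adjusted p = 0.0646, edgeR).

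The counts of this group changed with the pairing, with pair 3 and in a fit that took the reads outside genes as a covariate. Without the block 35 of 39 members were positive, with a median of 0.46, and none passed. Leaving S5P mock replicate 3 out of that fit turned the direction, with 6 of 38 members positive and a median of -0.59. DESeq2 with the block had 37 of 39 positive and called none. Without pair 3, 23 of 29 tested members were positive with a median of 0.38, and none passed. With the share of reads outside genes as a covariate in place of the block, 18 of 39 were positive and the median was -0.07, with no gene called over all genes. That fit also left out the block, and the share was lower with S5P in each pair. Antibody and share are thus partly confounded in it, and the part of the share was not tested.

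The other genes with more S5P given next were picked after their values were seen. The polyubiquitin gene UBQ10 stood at high levels, with 854, 336 and 1163 CPM in S5P mock, against 556, 161 and 699 CPM in S2P mock (log2 difference 0.77, SE 0.18, adjusted p = 0.00419, edgeR). The neighbouring dehydrin genes COR47 and ERD10 had log2 differences of 0.86 and 0.73, and the extensin genes EXT3 and EXT4 had 0.83 and 0.82. Of the glutathione S-transferases of the phi class that passed, GSTF2, GSTF6, GSTF8 and GSTF10 had more S5P, with log2 differences of 0.75, 0.93, 0.87 and 0.73, while GSTF11 had more S2P (-0.99). In all, 5 pairs of neighbouring genes were called together, and all 5 had the same direction in both genes. How often neighbours share a direction over all genes tested was not counted, so these 5 pairs have no background to be read against.

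The other lists had fewer calls, read here against 0.598% of all genes with more S5P, 0.805% with more S2P and 50.3% with a positive value. Among 49 tested photosynthesis genes, the light-harvesting genes CAB1 and LHB1B2 had more S5P (log2 differences 0.86 and 1.00), LHCB2.3 had more S2P, 35 were positive and the median was 0.20. CAB1 had 215, 46.9 and 112 CPM in S5P mock, against 113, 20.8 and 65.4 CPM in S2P mock. Its close tandem copies CAB2 and CAB3 had log2 differences of 0.51 and -0.29 with adjusted p of 0.383 and 0.727 (edgeR), and reads that such copies share could have been split among them. Of 22 tested genes of the circadian clock, the RNA-binding proteins GRP8 and GRP7 had more S5P (log2 differences 0.87 and 0.73, adjusted p = 0.00438 and 0.0105, edgeR) and the list's median was 0.10. EARLI1 and its tandem neighbour AZI1, a lipid transfer protein of systemic immunity, were 2 of the 4 tested genes of that type, with log2 differences of 1.08 and 0.89. The median of those 4 was 0.50, and their summed CPM gave log2 differences of 0.36, 0.54 and 0.68 in pairs 1, 2 and 3. H1.1 was the 1 of 23 tested histone genes to pass, with 18 positive and a median of 0.30, and RPT5A, an ATPase of the proteasome's base, was the 1 of 29 proteasome genes to pass (log2 difference 0.87, adjusted p = 0.0228, edgeR). RPT5A had 71.6, 52.4 and 72.0 CPM in S5P mock, all above the 31.3, 31.2 and 41.0 CPM in S2P mock.

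No gene passed among 32 tested cytosolic ribosomal protein genes (median 0.10), 19 jasmonate genes (0.18), 16 glucosinolate genes (0.23), 10 heat shock and chaperone genes (0.10), 4 flavonoid genes (0.07), 16 genes of the polymerase II elongation machinery (0.02) or 8 tested genes of the silent list (-0.04). With 1.4% of all genes called, no call in lists this small does not set them apart. The enzymes that write and erase the marks themselves also gave no call: of 16 tested CTD kinase and phosphatase genes 9 were positive, the median was 0.06, and SSU72, a serine 5 phosphatase, had too few reads. Their log2 differences lay between -0.46 (SE 0.31) for CDKD1;3, a kinase of the TFIIH module, and 0.39 (SE 0.25) for CDKC2, a kinase of the P-TEFb type.

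**Figure D3:**
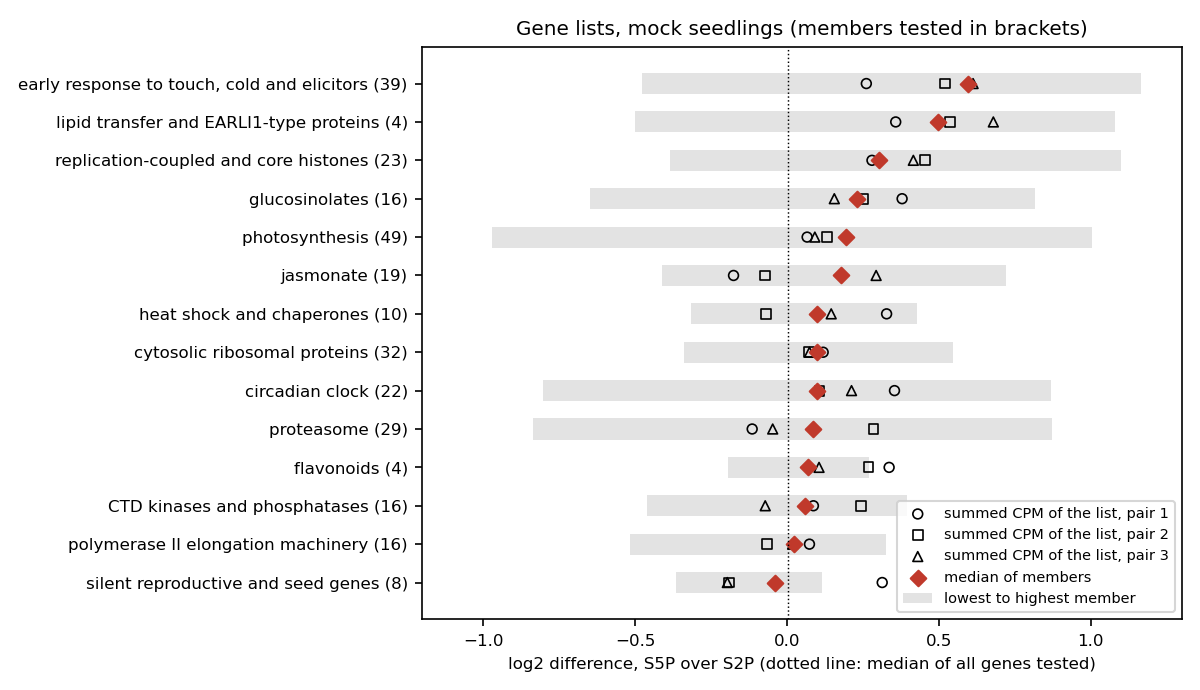
Log2 difference of S5P over S2P (horizontal axis) for 14 gene lists (rows, with the number of members tested). Red diamonds mark the median of the members, grey bars run from the lowest to the highest member, and open symbols mark the summed CPM of the list in each replicate pair. The early response list has the highest median (0.60). All 3 pairs lie right of 0 for this list and for several others, among them the histone and lipid transfer lists.

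Called genes with more S2P in all 3 pairs after TMM scaling were ranked by p. The 12 with the smallest p were AT5G33330, AT3G50682, LAP3, AT1G67570, AT5G55780, AT1G50440, AT3G06340, AT2G39440, AT5G48040, LHCB2.3, AT1G72190 and AT2G38255, most of which have no symbol in the gene table. Unscaled, AT1G72190 had 63.6 CPM with S5P and 62.5 CPM with S2P in pair 1. AT5G33330 had 50.9, 99.2 and 33.7 CPM in S5P mock, against 300.1, 135 and 104 CPM in S2P mock (log2 difference -1.60, SE 0.20, adjusted p = 1.68e-11, edgeR). LAP3, known for its part in the pollen wall, had 68.4, 68.9 and 35.2 CPM in S5P mock and 75.02, 182 and 105 CPM in S2P mock (log2 difference -1.22, SE 0.21, adjusted p = 1.92e-05, edgeR). At both genes every S5P library was below every S2P library. AT1G50440 had 159, 157 and 106 CPM in S5P mock, against 369, 203 and 246 CPM in S2P mock (log2 difference -1.01, SE 0.18, adjusted p = 5.81e-05, edgeR). AT3G06340 had 35.0, 57.9 and 49.3 CPM in S5P mock, against 87.5, 120 and 113 CPM in S2P mock (log2 difference -1.17, SE 0.21, adjusted p = 6.87e-05, edgeR). The groups did not overlap at these 2 genes either. The tRNA gene AT3G06335 next to AT3G06340 also had more S2P (log2 difference -0.88), with 202, 121 and 36.01 CPM in S5P mock and 425, 109 and 84.4 CPM in S2P mock, where pair 2 went the other way. LHCB2.3, a protein of the light-harvesting antenna of photosystem II, had 177, 60.6 and 57.9 CPM in S5P mock, against 306, 120 and 125 CPM in S2P mock (log2 difference -0.97, SE 0.19, adjusted p = 0.000426, edgeR), so that its direction was opposite to that of CAB1 and LHB1B2.

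Genes with known roles among the others with more S2P were picked after their values were seen. DPE2, a glucanotransferase of maltose metabolism at night, had 259, 215 and 106 CPM in S5P mock, against 525, 276 and 200.2 CPM in S2P mock (log2 difference -0.80, SE 0.18, adjusted p = 0.00185, edgeR). SNG1, an acyltransferase that makes sinapoylmalate, had 264, 91.0 and 164 CPM in S5P mock and 600.2, 151 and 240 CPM in S2P mock (log2 difference -0.80, SE 0.18, adjusted p = 0.00295, edgeR). COP8, a subunit of the COP9 signalosome, had 173, 245 and 133 CPM in S5P mock and 413, 297 and 229 CPM in S2P mock (log2 difference -0.77, SE 0.18, adjusted p = 0.00341, edgeR). At all 3 genes S2P was higher in each pair, but the lowest S2P value was below the highest S5P value.

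Gene classes took nearly equal shares of the reads of both antibodies. Protein-coding genes held 93.2% ± 0.84 of nuclear gene reads in S5P mock and 92.9% ± 1.23 in S2P mock (SD, n = 3 each), and pseudogenes 5.10% ± 0.76 in S5P mock and 5.25% ± 1.16 in S2P mock. The 6665 genes with the highest mean CPM held 56.7% ± 3.58 in S5P mock and 56.9% ± 4.43 in S2P mock. MicroRNA genes held 0.075%, 0.064% and 0.067% in S5P mock, against 0.081%, 0.082% and 0.072% in S2P mock, and genes annotated as ncRNA 0.334%, 0.320% and 0.343% in S5P mock, against 0.353%, 0.342% and 0.362% in S2P mock. In both of these small classes the S5P share was lower in each pair. Over 18 classes the lowest p in a two-sided exact permutation test was 0.2, and every adjusted p was 1, in a design that cannot go below 0.1. Of 11 tested tRNA genes 10 had a negative log2 difference, while 50.3% of all genes tested had a positive one. Of the 11, 2 passed with more S2P (AT3G06335 and AT3G14855), against 0.805% of all genes. Positive values were also few among lncRNA genes (2 of 15), genes annotated as ncRNA (12 of 41) and genes with no TSS window (18 of 55). The U1 snRNA gene U1.5 was the 1 snRNA gene tested and had more S5P (log2 difference 1.103, adjusted p = 0.0405, edgeR).

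The windows at the start and over the body of genes gave the same directions. In the gene body window 145 of 13209 genes passed (1.1%), 52 with more S5P (0.394%) and 93 with more S2P (0.704%), and in the window at the transcription start site (TSS) 43 of 1992 passed (2.16%), 9 with more S5P (0.452%) and 34 with more S2P (1.71%). Without the block none passed in either window. The windows share most reads with the whole genes, so they are no separate test. Together they hold somewhat more reads than the whole genes (153832 and 503765 in S5P mock replicate 1, against 628487), so a TSS share is a share of the 2 windows and not of the gene. Of the 98 genes with more S5P over the whole gene, all 78 tested in the body and all 58 tested at the TSS were positive, and of the 132 with more S2P, 102 of 103 in the body and 32 of 33 at the TSS were negative. The smallest p with more S5P at the TSS belonged to AT2G10940 (log2 difference 1.39, SE 0.35, adjusted p = 0.0111, edgeR). The smallest p with more S2P there belonged to AT4G37090 (-1.66, SE 0.32, adjusted p = 0.000417, edgeR). The start window took 23.4%, 23.4% and 21.6% of the reads of both windows in S5P mock, against 21.1%, 22.9% and 20.3% in S2P mock, higher with S5P in each pair but with overlapping ranges.

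Genes of the 2 directions differed in how their reads were spread between start and body, also in the induced libraries, which the mock fit did not use. There, the median share of a gene's reads that lay in the TSS window was 41.7% with S5P and 38.4% with S2P for 94 genes with more S5P in mock. For 129 genes with more S2P in mock it was 15.6% with S5P and 8.70% with S2P, against 19.5% and 19.1% over all 16333 genes with both windows. When all genes were split into 5 equal groups by this share in the induced libraries, the group with the lowest share held 3 genes with more S5P and 67 with more S2P, and the group with the highest share held 66 with more S5P and 36 with more S2P. The genes with more S2P fell at both ends: their upper quartile was 41.0%, above the 28.2% of all genes. The median log2 difference of all genes stayed between -0.05 and 0.03 in all 5 groups. This split was made after the values were seen and carries no test. The share is made of raw reads and is not scaled to the length of either window. Gene length was not analysed, so a share that differs with gene length cannot be told apart from a polymerase nearer the start. This holds for the mock and induced libraries alike and was not tested.

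**Figure D4:**
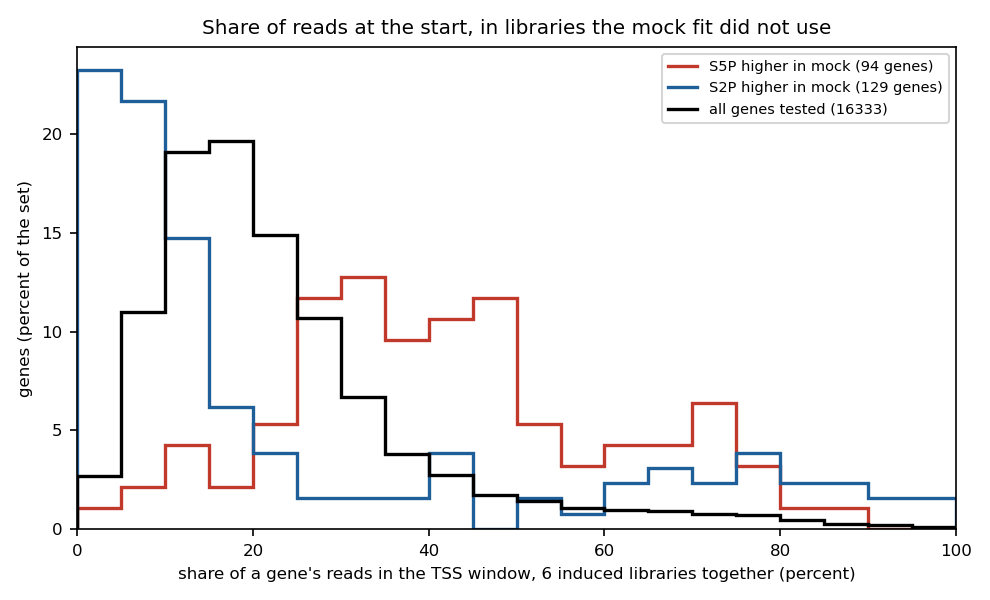
Share of a gene's reads in the TSS window, out of the reads in the TSS and gene body windows of the 6 induced libraries together (horizontal axis, percent, bins of 5), against the percent of genes in each set (vertical axis). Shares are not scaled to window or gene length. Genes with more S5P in mock (red, median 40.7%) lie to the right of all genes (black, median 19.2%), while those with more S2P (blue, median 10.8%) pile up at the left with a second group above 60%.

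The same contrast in the induced libraries called 0 of 23364 genes by edgeR with the block, where 59 had an unadjusted p under 0.05 (0 and 163 without the block), and same-numbered libraries did not pair (correlations -0.23, -0.60 and -0.44). Without replicate 2, 672 genes passed (2.71% of 24781), 3 with more S5P (0.0121%) and 669 with more S2P (2.7%), in a fit that leaves out the shallowest S5P library (115868 reads). Of the genes with more S5P in mock, 76 of 97 (78.4%) were positive in the induced libraries too, and of those with more S2P 104 of 132 (78.8%) were negative, while 56.1% of all genes had the same sign in both. The median log2 difference of the first set was 0.21 in the induced libraries, against 0.86 in mock. For the second set the medians were -0.61 in the induced libraries and -0.85 in mock. Without the block, 89 of 97 of the first set and 99 of 132 of the second had the same sign as in mock, with medians of 0.30 and -0.35, against 57.3% of all genes. With the block 41.1% of all induced genes were positive (median -0.09), which favours negative values. In replicate 2 of the induced libraries both sets went the other way by summed CPM. The genes with more S5P in mock had 3608 CPM with S5P and 9628 with S2P, and those with more S2P 31303 and 8710. Replicates 1 and 3 kept the mock direction. Here the antibody cannot be told apart from the induced protein, GFP-TFIISmut with S5P and GFP-TFIIS with S2P. Within mock, genes called from 2 pairs were looked up in the pair left out. Of those called without pair 1, 55 of 65 with more S5P and 32 of 32 with more S2P had the same sign in pair 1, and of those called without pair 2, 39 of 52 and 59 of 90 had the same sign in pair 2, against 50.5% to 53.9% of all genes in those pairs.

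The summed level of both sets was set beside the share of reads outside genes in each library. The 132 genes with more S2P summed to 11202, 10590 and 7526 CPM in S5P mock, against 23257, 14429 and 13967 CPM in S2P mock. Within an antibody the mock sums of these 132 genes did not follow the share outside genes, since replicate 2 had the highest share with both antibodies and not the highest sum. In the induced libraries they summed to 10628, 31303 and 6562 CPM with S5P, where 22.2%, 38.6% and 16.1% of reads lay outside genes, against 26105, 8710 and 24465 CPM with S2P, where 28.2%, 20.3% and 33.4% lay outside. The 3 induced libraries with the most reads outside genes, 1 of S5P and 2 of S2P, thus had the 3 highest sums, although the order within S2P did not follow the share. The 98 genes with more S5P summed to 10258, 6651 and 20765 CPM in S5P mock, against 5833, 4082 and 11278 CPM in S2P mock. Within each antibody these mock sums fell as the share outside genes rose. In the induced libraries the 98 genes summed to 9044, 3608 and 12498 CPM with S5P and 6146, 9628 and 3878 CPM with S2P, where those same 3 libraries had the 3 lowest sums. With the share outside genes as a covariate in place of the block, 0 of 16388 genes passed in mock (653 had an unadjusted p under 0.05), as did 0 without the block alone. The part of this share in the 230 calls was not tested beyond that fit.

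**Figure D5:**
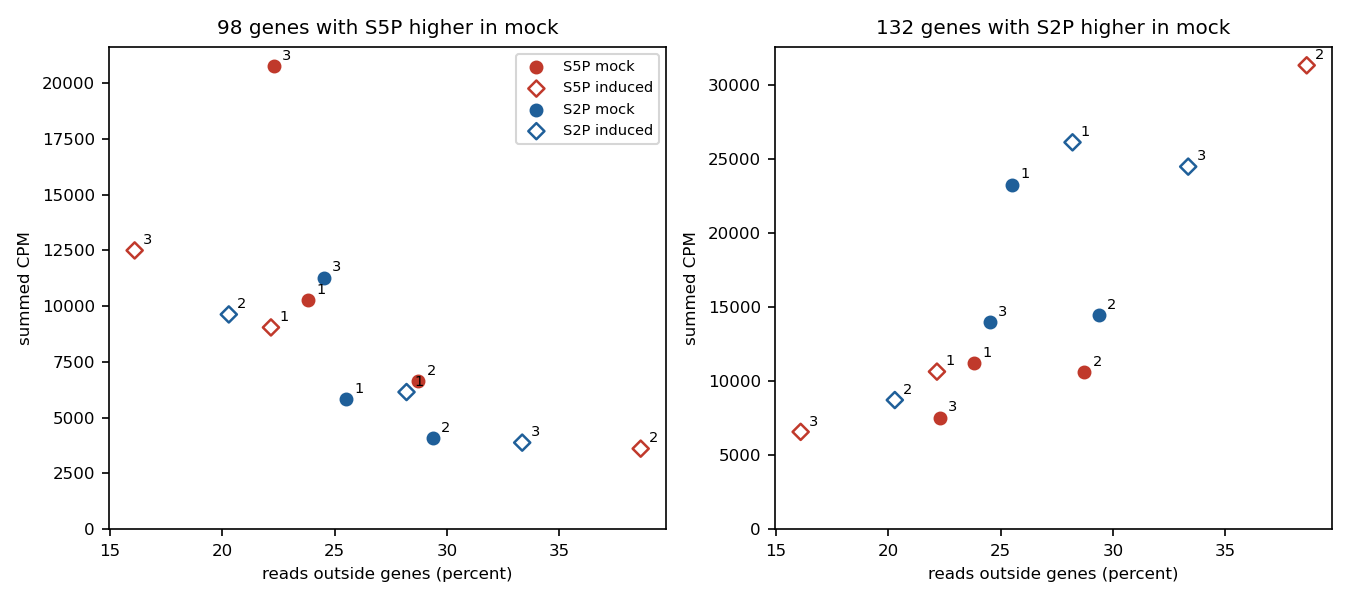
Summed CPM (vertical axis, from 0) of the 98 genes with more S5P in mock (left) and the 132 with more S2P in mock (right) against the percent of counted reads outside genes (horizontal axis), 1 point per library, red for S5P and blue for S2P, filled for mock and open for induced, numbered by replicate. The 3 induced libraries with 28.2% or more of reads outside genes have the highest induced sums in the right panel, up to 31303 CPM in S5P induced replicate 2, and the lowest in the left panel.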

How the data were processed

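Reads over genes were deposited by the authors as whole-number counts per gene, in 36 files: 12 libraries, each with a whole-gene, a TSS and a gene body table. Per the submitters' processing notes, Trimmomatic, HTSeq and the TAIR10 build were used. No source used here gives the aligner, strand setting or window bounds, and 74.7% to 96.7% of the mock libraries' reads stood on the not-aligned line. The 5 closing lines that name no gene and 279 organelle genes were left out, which left 33323 nuclear genes. Symbols and gene types came from a RefSeq gene table of TAIR10.1 (32835 genes matched), with no coordinates used. The libraries sat in the 2 groups by their labels.

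Differences were tested with edgeR 4.0.16 (R 4.3.3): filterByExpr (minimum count 10), TMM factors, a quasi-likelihood F test with the replicate number as a block, Benjamini-Hochberg adjusted p under 0.05 over all genes tested, log2 as S5P over S2P. Same replicate numbers were taken as pairs by the plan of the comparison, and the correlation of same-numbered libraries was looked at beside it. No label states a pairing. The scripts were tested on simulated counts. DESeq2 1.42.0 and limma 3.58.1 were alternatives. Named genes were the 12 in each direction with the smallest p among called genes with the same sign in all 3 pairs after TMM scaling. Up to 2 members of each list, the CTD enzymes and TFIIS were also named. The members, the 14 lists (381 genes) and the tests were chosen with earlier results of these data known. Class shares were compared by exact permutation. Replicates of 1 antibody differed by more than counting noise, so each counted as 1 sample.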

Additional observations from a re-analysis of the deposited data

Results flagged for a closer look

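The gene CYCT1;4 (AT4G19600), which encodes a cyclin partner of the P-TEFb-type kinases, had opposite signs in mock and induced plants. After TMM scaling S5P was above S2P in all 3 mock pairs (log2 difference 0.10, SE 0.21, adjusted p = 0.955, edgeR). The unscaled values were 74.8, 96.5 and 64.2 CPM with S5P and 68.8, 67.7 and 66.2 CPM with S2P, so that pair 3 had the other sign unscaled. S5P was below S2P in all 3 induced pairs, with 81.3, 69.0 and 98.4 CPM, against 89.0, 96.0 and 124 CPM with S2P (log2 difference -0.34, adjusted p = 1 in edgeR). Both log2 differences were smaller than their SE (0.21 in mock and 0.77 in induced plants). The difference between the 2 conditions was not tested.

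Reads over chloroplast and mitochondrial genes, which the comparisons left out, made up 1.80%, 4.72% and 0.97% of gene reads in S5P mock and 2.104%, 3.12% and 0.76% in S2P mock. Organelles hold no RNA polymerase II, and no input library was used here to set these shares against.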

How the results depend on the processing

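The 230 calls over whole genes stayed between 161 and 301 under other scaling factors, organelle genes kept in, no filter on low counts, at least 10 counts in every library, a robust prior and limma-voom. They became 3 after thinning to the shallowest library and 0 with no replicate block, with DESeq2 with or without the block, with the share outside genes as a covariate, and with all 12 libraries in 1 fit. Leaving out replicates gave 0 to 142 calls: 97 without pair 1, 142 without pair 2, 0 without pair 3 and 0 in each of the 6 fits with no block. In the gene body window 145 calls became 93 with no filter, 1 with DESeq2, 0 with no block and 2 to 110 with a pair left out, and at the TSS 43 became 1 with no filter, 0 with DESeq2 or no block and 0 with any pair left out. In the induced libraries 0 calls became 672 without replicate 2 (3 with more S5P and 669 with more S2P), and were 0 to 672 over the pairs left out.

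List medians with a pair left out ran from 0.062 to 0.21 (photosynthesis), 0.056 to 0.15 (ribosomal proteins), 0.41 to 0.66 (histones), 0.38 to 0.66 (early response, but -0.59 with no block and without S5P mock replicate 3), -0.11 to 0.21 (jasmonate), 0.019 to 0.11 (elongation machinery), 0.020 to 0.27 (CTD enzymes) and 0.79 to 0.96 (lipid transfer). Thinning gave 0.10 for photosynthesis, 0.040 for ribosomal proteins, 0.33 for heat shock, -0.15 for the proteasome and 0.81 for lipid transfer, and no value for flavonoids and silent genes. Ribosomal proteins stood at 0.070 by total counts and photosynthesis at 0.29 with no replicate block. With no block and without S5P mock replicate 3, DIC2 (-0.53), CAF1b (-0.32), AT4G27280 (-0.64), AGP1 (-0.87) and PUB23 (-0.59) turned negative. Class differences moved by less than 1 SD between replicates in all alternatives, although 33 of 144 changed sign, in 12 of 18 classes. Scaling moved the median of all genes by under 0.1.

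Depth limited S2P replicates 1 and 2 most, where 3 reads were 18.8 and 15.6 CPM. The calls rest on the pairing and the deepest pair. The fit with the share outside genes also left out the block, so its loss of calls cannot be put down to that share, and the cause of these changes was not tested.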
